A study of Mus musculus with 6 samples.

Results

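The genes described are 10 receptors and partner proteins with which macrophages take up modified lipoproteins, microbes and dead cells: Marco, Msr1, Cd36, Siglec1, Stab1, Mertk, Axl, Gas6, Scarb1 and Cd68. They were picked by symbol from a table of 23282 mouse genes, and where a symbol had several transcripts the one with the highest mean was read. All 10 were found, and 9 of them were among the 7995 genes that averaged at least 10 reads and were tested. Marco was below that mean. Poly(A) RNA had been sequenced from peritoneal macrophages of female C57BL/6 mice elicited with thioglycollate, cells that enter the peritoneal cavity during a sterile inflammation. The cells had received siRNA to Smyd5 (siSmyd5), siRNA to Phf2 (siPhf2) or control siRNA (siCtl) for 48 hours, and then KLA at 100 ng per ml or vehicle for 4 hours. KLA is Kdo2-lipid A, the part of bacterial lipopolysaccharide that the receptor TLR4 senses. Each siRNA and agent has 1 library, 6 in all, and the labels do not say how many animals gave the cells, nor their age. The comparisons ask what KLA did to these genes, and how their RNA differed after siRNA to a histone methyltransferase (Smyd5) or a histone demethylase (Phf2).

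Scavenger receptors bind many unrelated ligands, among them oxidised lipoproteins, bacterial surfaces and debris, and bring them into the cell. Dead cells are recognised by exposed phosphatidylserine, a lipid that healthy cells keep on the inner face of the membrane. Mertk and Axl are receptor tyrosine kinases of one family that reach this lipid through the bridging protein Gas6, and signalling through them also dampens the response to TLR4.

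The libraries held 921925 and 919338 assigned reads after siSmyd5 (vehicle and KLA), 577054 and 420149 after siPhf2, and 1359270 and 1429509 after siCtl. In the siPhf2 libraries the ribosomal RNA precursor Rn45s took 66.7% and 71.6% of these reads, against at most 1.2% in the other 4. Levels are given as reads and as CPM, reads scaled to a common library size by TMM, which is set by the bulk of the genes and not by Rn45s. The siRNA targets do not fully bear out the labels. Smyd5 had 9 and 20 reads in the libraries labelled siSmyd5 (vehicle and KLA) and 44 and 29 in siCtl, which is 0.329 of control under vehicle (95% interval 0.141 to 0.683) and 1.10 under KLA (0.592 to 2.02). Phf2 had 29 and 8 reads in the libraries labelled siPhf2 and 113 and 120 in siCtl. After scaling that is 2.55 of control under vehicle (1.63 to 3.86) and 1.08 under KLA (0.458 to 2.21). In the libraries labelled siSmyd5, Phf2 had 52 reads under vehicle and 34 under KLA. These are 0.741 of control (0.523 to 1.04) and 0.453 of control (0.3 to 0.668). Smyd5 had 3 reads under vehicle and 0 under KLA in the libraries labelled siPhf2, too few to place against control (0.134 to 2.11 under vehicle). Library totals printed with the deposited siPhf2 and siCtl values fit each other's columns, so the names siPhf2 and siCtl below mean the libraries labelled so. All 7 macrophage markers read, among them Csf1r and Mpeg1, had reads in every library. The dendritic cell markers Flt3 and Cd209a and the eosinophil markers Prg2 and Epx had 0 reads in all 6, and the T cell marker Cd3e at most 1. Other markers of these cells were read at low counts: the dendritic cell gene Zbtb46 had 13 reads with KLA and 1 with vehicle after siSmyd5, 2 and 0 after siPhf2, and 20 and 1 in siCtl. The 4 dendritic cell markers summed to 10.1 CPM with KLA and 3.36 with vehicle after siSmyd5, 14.7 and 0 after siPhf2, and 10.8 and 5 in siCtl. Mast cell and eosinophil markers summed to at most 18 CPM a library and T cell markers to at most 2.71. The part of these cells in the KLA differences was not tested.

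These macrophages carried much RNA of a few of the receptors and little of the rest. Per kilobase of coding sequence, Cd68, an endosomal and lysosomal glycoprotein, and Cd36, a receptor for oxidised lipoproteins and long-chain fatty acids, were the highest 2 in every library. Cd36 stood first in siCtl, at 1597 CPM per kilobase under KLA (95% counting interval 1553 to 1642) and 1628 under vehicle (1585 to 1672), and Cd68 first in the siSmyd5 and siPhf2 libraries. That order holds for coding length only. Per kilobase of the whole transcript Cd68 was first in all 6 libraries. In siCtl Cd68 was then at 1165 CPM under KLA and 1332 under vehicle, with Cd36 at 641 and 654. Cd68 is listed with a transcript of 1002 bases, no longer than the coding length of 1005 used, and Cd36 with 3527 against 1416. For Cd68 that coding length is the longest of any transcript of the symbol, because the listed transcript had no matched coding length. The order per whole transcript thus rests on listed lengths that are not alike. Msr1, the class A scavenger receptor that takes up acetylated lipoproteins, came next in all siSmyd5 and siCtl libraries, at 117 to 157 CPM per kilobase of coding sequence. In siCtl under vehicle Scarb1, Gas6, Mertk, Siglec1 and Axl followed between 34.1 and 21.4 CPM per kilobase of coding sequence, and each of these overlaps its neighbours in that order within counting intervals. Stab1, an endocytic receptor for acetylated lipoprotein and the matrix protein SPARC, and Marco, a class A receptor for bacteria and particles, were the lowest 2 in every library, and in siCtl their intervals overlap (Stab1 3.84, interval 3 to 4.84, and Marco 3.76, interval 2.05 to 6.3, under vehicle).

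Marco had 3 reads under KLA and 4 under vehicle after siSmyd5, 0 and 0 after siPhf2, and 8 and 14 in siCtl. At the depth of the siPhf2 libraries a count of 0 allows up to 22 CPM under KLA and 12.4 CPM under vehicle, above the 3.61 and 5.84 CPM of siCtl, so a difference in Marco was not detectable there.

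**Figure D1:**
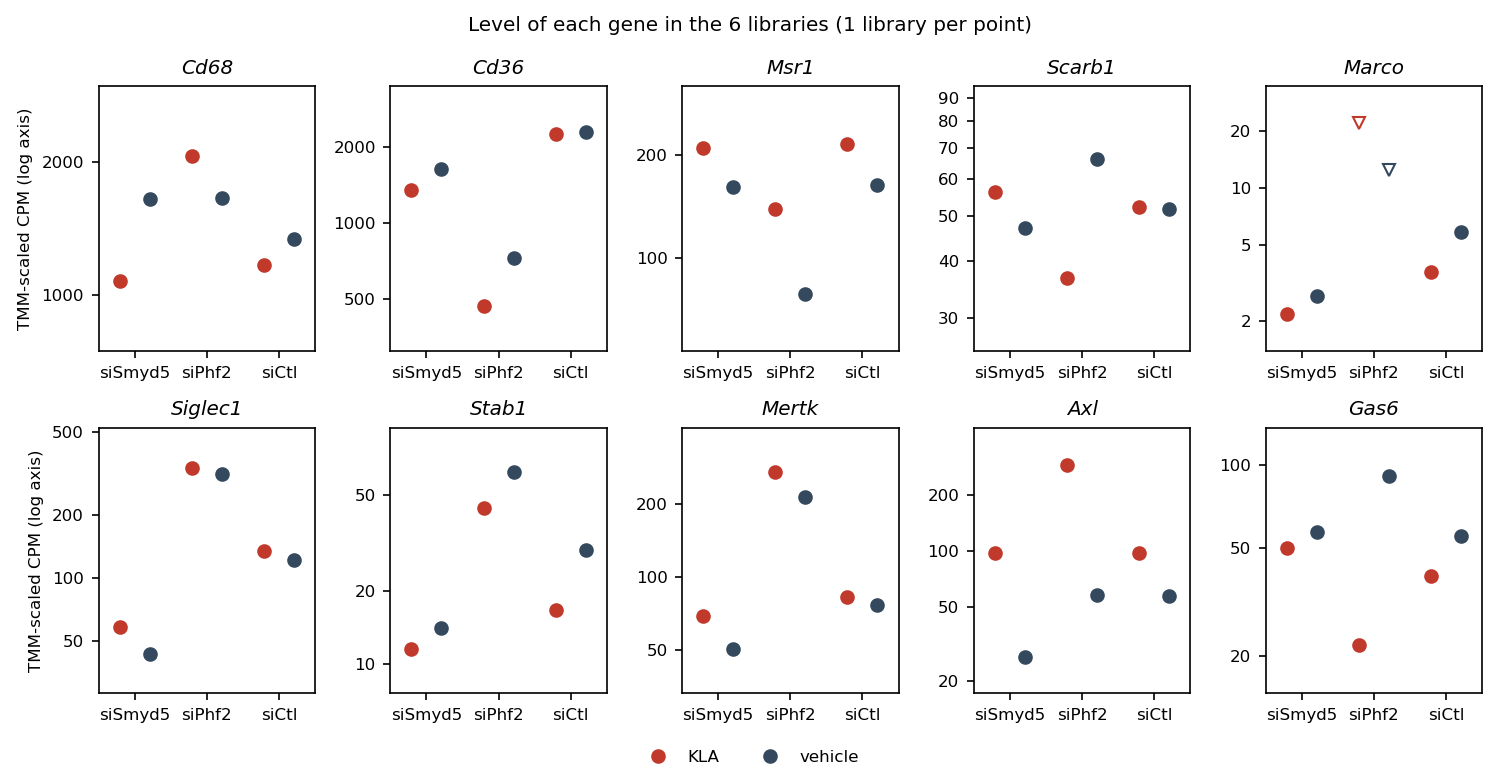
TMM-scaled CPM of each of the 10 genes (log axis) in the siSmyd5, siPhf2 and siCtl libraries, with KLA in red and vehicle in dark blue. Each point is 1 library, so there are no error bars, and open triangles are the upper limits that 0 reads allow; Axl is higher with KLA after each siRNA, and Cd36 is lowest in both siPhf2 libraries.

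KLA raised 1 of the 9 tested genes, the receptor Axl. In the fit over all 6 libraries 15.8% of the tested genes passed, 11.2% higher with KLA and 4.6% lower, so 1 of 9 is near that background. With scaling to the library total 634 genes were higher and 536 lower, against 892 and 368 with TMM. Axl (NM_009465, chr7:26541519-26573752 on mm9, minus strand) had 136 reads with KLA and 40 with vehicle after siSmyd5, 40 and 14 after siPhf2, and 217 and 137 in siCtl. After scaling these were 98.1 CPM with KLA and 26.9 with vehicle after siSmyd5, 293 and 57.9 after siPhf2, and 97.9 and 57.1 in siCtl. Axl was higher with KLA after each of the 3 siRNAs, and no KLA library was as low as any vehicle library. The averaged log2 fold was 1.39 (standard error 0.24), with an adjusted p of 0.000218 by edgeR's quasi-likelihood test and Benjamini-Hochberg adjustment. The call was lost only in limma on log2 values, with adjusted p of 0.0569 and 0.102 at the 2 values added before the log, out of 17 alternatives that gave log2 folds of 1.14 to 2.06. In this bulk RNA more cells of a type and more RNA per cell cannot be told apart. The p-values reflect nothing beyond the spread among these 6 libraries, which no label ties to separate animals or cultures. With 1 library a group that spread is how far the KLA difference varies between siRNAs, on 2 residual degrees of freedom. The fit also draws the spread of each gene toward that of the other tested genes. A p-value thus does not rest on the gene's own spread alone. No part of this is a spread between replicates.

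The size of the Axl difference varied between the siRNAs. Within single pairs of libraries the ratio of KLA to vehicle was 3.65 after siSmyd5 (95% counting interval 2.55 to 5.34), 5.06 after siPhf2 (2.70 to 10.1) and 1.71 in siCtl (1.38 to 2.14). The intervals of the siSmyd5 and siPhf2 pairs lie above that of the siCtl pair, but with 1 library a group this difference between siRNAs was not tested. A call by size between 2 libraries asks for a log2 ratio of at least 1 in either direction with 2 reads added and an interval that leaves out 1. By size Axl was higher with KLA after siSmyd5, as were 8.72% of tested genes, and after siPhf2, as were 8.26%. Lower calls took 3.5% after siSmyd5, none of the 9 among them, and 6.65% after siPhf2, with Gas6 the only one of the 9. In siCtl 7.18% of tested genes were called higher and 2.68% lower, and none of the 9 was. The KLA levels after siSmyd5 and in siCtl were alike, at a ratio of 1 (0.803 to 1.25), and the vehicle levels were not, at 0.47 (0.322 to 0.673). After siPhf2 it was the reverse, with a ratio to siCtl of 3 under KLA (2.08 to 4.22) and 1.01 under vehicle (0.54 to 1.76).

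Mertk, the related kinase that macrophages use to clear apoptotic cells, did not pass for KLA. Mertk (NM_008587, chr2:128524733-128627924 on mm9, plus strand) had 96 reads with KLA and 75 with vehicle after siSmyd5, 37 and 52 after siPhf2, and 184 and 183 in siCtl. Its averaged log2 fold was 0.28 (standard error 0.18, edgeR adjusted p 0.363). Gas6, the ligand of both kinases, had 69 reads with KLA and 85 with vehicle after siSmyd5, 3 and 22 after siPhf2, and 87 and 132 in siCtl. After scaling the KLA value was the lower of each pair, at 49.8 against 57.1 CPM after siSmyd5, 22 against 91 after siPhf2 and 39.2 against 55 in siCtl, and the largest gap rests on 3 reads. Averaged over the siRNAs, the log2 fold of Gas6 was -0.47 (standard error 0.23, edgeR adjusted p 0.188), which does not pass.

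Because the 3 transcripts are read in the same libraries, their balance does not depend on scaling. Axl made up 58.6% of the Axl and Mertk reads with KLA after siSmyd5 (95% Wilson interval 52.2 to 64.8), 51.9% after siPhf2 (41 to 62.7) and 54.1% in siCtl (49.2 to 58.9). With vehicle the share was 34.8% (26.7 to 43.9), 21.2% (13.1 to 32.5) and 42.8% (37.5 to 48.3) for the same siRNAs. Every KLA library lies above every vehicle library, with point values over 50% against under 50%. Against Axl, the share of the ligand was lower with KLA. Gas6 made up 33.7%, 6.98% and 28.6% of the Gas6 and Axl reads with KLA after siSmyd5, after siPhf2 and in siCtl. With vehicle it made up 68%, 61.1% and 49.1%. A share against Axl falls where Axl rises, even if Gas6 does not change. For Gas6 alone the ratio of KLA to vehicle was 0.873 after siSmyd5 (95% counting interval 0.626 to 1.21). It was 0.242 after siPhf2 (0.0463 to 0.804) and 0.713 in siCtl (0.537 to 0.941). These gene pairs were chosen after the values were seen and carry no test. Fibroblasts also express Axl and Gas6, and 7 stromal and mesothelial markers, collagen genes foremost, summed to 722 CPM with KLA and 654 with vehicle after siSmyd5, 337 and 434 after siPhf2, and 872 and 851 in siCtl. The part of such cells in the Axl and Gas6 values was not tested.

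**Figure D2:**
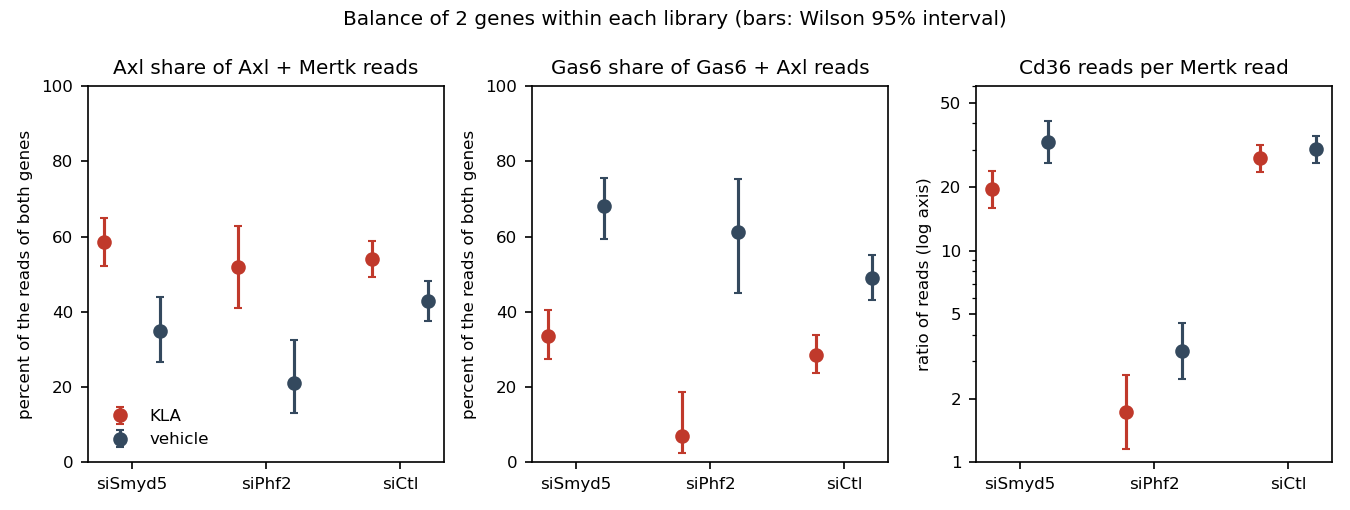
Balance between pairs of genes within each library, by siRNA, with KLA in red and vehicle in dark blue: percent of Axl in Axl and Mertk reads, percent of Gas6 in Gas6 and Axl reads, and Cd36 reads per Mertk read (log axis), with Wilson 95% intervals as bars. With KLA the Axl share is 51.9% to 58.6%, against 21.2% to 42.8% with vehicle, and the Cd36 ratio is 1.73 and 3.37 in the siPhf2 libraries, against at least 19.5 in the others.

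The promoters of these 2 kinases are printed because the receptors are of one family and only Axl passed for KLA. Each runs over 300 bases around the RefSeq start, most of them before it, taken from RefSeq on GRCm38.p6, 5′ to 3′ on the strand of the gene, Axl at chr7:25788684-25788983 (minus) and Mertk at chr2:128698665-128698964 (plus). Capitals mark the reverse complement of GAGGAAG, a form of the site bound by ETS factors.
Axl: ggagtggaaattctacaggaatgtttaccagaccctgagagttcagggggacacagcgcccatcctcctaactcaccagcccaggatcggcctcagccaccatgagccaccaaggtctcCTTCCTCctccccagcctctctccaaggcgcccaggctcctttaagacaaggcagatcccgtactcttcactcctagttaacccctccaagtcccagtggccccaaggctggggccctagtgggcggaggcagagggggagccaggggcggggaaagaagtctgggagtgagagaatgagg
Mertk: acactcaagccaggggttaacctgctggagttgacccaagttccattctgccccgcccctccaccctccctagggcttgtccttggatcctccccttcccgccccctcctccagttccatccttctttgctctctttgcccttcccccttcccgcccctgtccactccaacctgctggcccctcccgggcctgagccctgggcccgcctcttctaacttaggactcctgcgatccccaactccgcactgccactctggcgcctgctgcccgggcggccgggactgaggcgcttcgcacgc
The capitals in Axl lie at -131 to -125 from the start. GAGGAAG was searched on both strands, and of the 7 promoters of the 10 genes that were given it is in those of Axl and Marco, against 13.6% of all 32851 promoters of this length. The kappaB motif, bound by NF-kappaB and also searched on both strands, is in that of Marco alone, against 1.63% of all. The interferon-stimulated response element, searched likewise, is in none of the 7 and in 3.44% of all. Marco's own matches lie at -146 to -140 for GAGGAAG and at -30 to -21 for the kappaB motif. A match describes letters only and says nothing of binding.

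The scavenger receptors proper did not pass for KLA over the 6 libraries, in either direction. Msr1 was 209 CPM with KLA and 161 with vehicle after siSmyd5, 139 and 78.6 after siPhf2, and 216 and 164 in siCtl, higher with KLA in each pair. Its averaged log2 fold was 0.44 (standard error 0.20, edgeR adjusted p 0.147), and without both siPhf2 libraries it passed at 0.37 (edgeR adjusted p 0.015). Stab1 was lower with KLA in each pair, at 11.5 against 14.1 CPM after siSmyd5, 44 against 62.1 after siPhf2 and 16.7 against 29.6 in siCtl. For Stab1 the averaged log2 fold was -0.63 (standard error 0.29, edgeR adjusted p 0.159).

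Cd36, Siglec1, Scarb1 and Cd68 had averaged log2 folds with KLA between -0.28 and 0.22. Scarb1 is the receptor for high-density lipoprotein, and Siglec1 is a lectin of sialic acid, also called sialoadhesin or CD169. Scarb1 was the flattest of the 9 tested genes, with a log2 fold of 0.05 (standard error 0.21). Its sign turned in 10 of 17 alternatives, so no direction is given. Cd68 was 1074 CPM with KLA and 1647 with vehicle after siSmyd5, 2061 and 1655 after siPhf2, and 1167 and 1335 in siCtl. The KLA value of Cd68 was thus lower than vehicle after siSmyd5 and in siCtl and higher after siPhf2. With scaling to the total the log2 ratio after siPhf2 was -0.05. Without both siPhf2 libraries Cd68 passed as lower with KLA, at a log2 fold of -0.42 (edgeR adjusted p 0.00251), and with them it did not, at -0.18 (adjusted p 0.631).

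**Figure D3:**
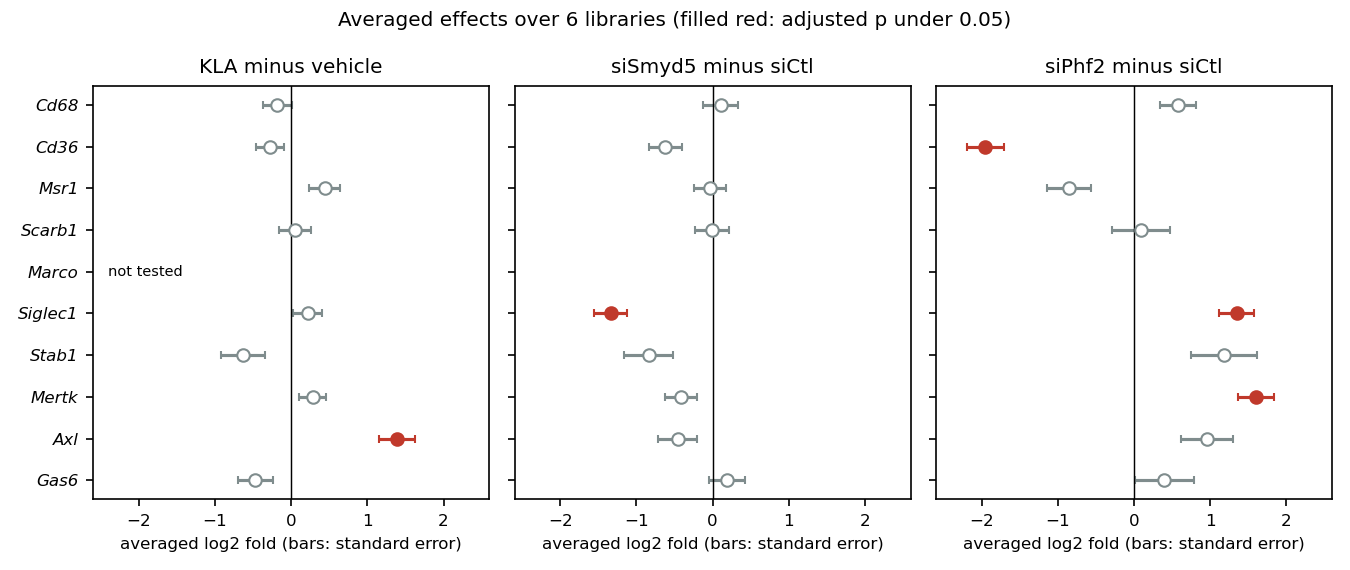
Averaged log2 fold of each gene in the fit over the 6 libraries, for KLA minus vehicle, siSmyd5 minus siCtl and siPhf2 minus siCtl, with standard errors as bars and filled red points where the adjusted p is under 0.05. Axl passes for KLA, Siglec1 for siSmyd5, and Cd36 (lower), Mertk and Siglec1 (higher with TMM, lower with scaling to the total) for siPhf2, while Marco was not tested.

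After siSmyd5 1 of the 9 tested genes passed, Siglec1, which fell. Over all tested genes 6.32% passed, 3.6% lower (288) and 2.71% higher (217) than siCtl, and with scaling to the library total 171 were lower and 58 higher. Siglec1 (NM_011426, chr2:130894956-130912501 on mm9, minus strand), with which macrophages bind sialic acid on other cells and on viruses, had 81 reads under KLA and 65 under vehicle after siSmyd5, against 300 and 292 in siCtl. After scaling these were 58.4 and 43.6 CPM after siSmyd5, against 135 and 122 CPM in siCtl. Both siSmyd5 libraries were below both siCtl libraries, and below the siPhf2 libraries too. The averaged log2 fold was -1.34 (standard error 0.22, edgeR adjusted p 0.00386). The call was kept in 11 of 17 alternatives and lost in limma on log2 values (adjusted p 0.767 and 0.866) and without any 1 of the 4 siSmyd5 and siCtl libraries, where the log2 fold was -1.21 to -1.49. With the siCtl and siPhf2 names exchanged it was -2.69.

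Transcript length moved with the siSmyd5 difference. In the siSmyd5 libraries long transcripts were lower relative to siCtl than short ones, with a Spearman correlation across tested genes of -0.47 under KLA and -0.455 under vehicle, a description, since genes are not independent replicates. The 400 longest had a median log2 ratio of -0.55 under KLA and -0.54 under vehicle, against 0.49 and 0.60 for the shortest. Siglec1 has a transcript of 6366 bases. Its log2 ratio was -1.19 under KLA and -1.46 under vehicle, and -0.85 and -1.09 once the trend with length was taken off. It stayed the lowest of the 9 on that scale under both agents. Against Mertk, which is shorter at 3536 bases, Siglec1 made up 45.8% of the reads of both under KLA and 46.4% under vehicle after siSmyd5, against 62% and 61.5% in siCtl.

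Stab1 and Axl were lower by size in the vehicle library alone. Stab1, whose transcript of 7926 bases is the longest of the 10, stood at 0.692 of siCtl under KLA (95% counting interval 0.359 to 1.27) and 0.476 under vehicle (0.278 to 0.784). With the trend in length taken off its log2 ratio was -0.04 under KLA and -0.54 under vehicle. Lower calls by size made up 5.42% of tested genes under vehicle, where 3 of the 9 genes met it (Siglec1, Stab1 and Axl), and 3.76% under KLA, where Siglec1 did. Higher calls made up 2.59% under vehicle and 1.81% under KLA, and none of the 9 was among them. Axl at vehicle had a log2 ratio of -1.06, and -0.81 with the trend taken off.

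Cd36 missed the threshold after siSmyd5. It had 1868 reads under KLA and 2449 under vehicle after siSmyd5, against 5015 and 5529 in siCtl, which is 1348 and 1644 CPM against 2261 and 2305 CPM. Both siSmyd5 values of Cd36 lie under both siCtl values, with ratios of 0.596 (95% counting interval 0.565 to 0.629) under KLA and 0.713 (0.68 to 0.748) under vehicle. Averaged over agents, the log2 fold was -0.62 (standard error 0.22, edgeR adjusted p 0.0832). With the siCtl and siPhf2 names exchanged Cd36 passed as higher after siSmyd5, at 1.33 (edgeR adjusted p 0.000438). Without both siPhf2 libraries Cd36 passed at -0.64 and 4 of the 9 genes were called, all lower (Siglec1, Cd36, Stab1 and Mertk), where the fit has 1 residual degree of freedom and calls 2075 of all tested genes, against 505 with them. Msr1, Scarb1, Gas6 and Cd68 had averaged log2 folds between -0.04 and 0.19. Of the markers of other cells the neutrophil gene S100a8 rose after siSmyd5 (log2 fold 1.25, edgeR adjusted p 0.0382), with 28 reads under KLA and 36 under vehicle, against 18 and 25 in siCtl. All 6 neutrophil markers summed to 90.2 and 117 CPM after siSmyd5, against 99.7 and 97.6 in siCtl, and the stromal and mesothelial sum was 722 and 654 CPM, against 872 and 851. Their part in the siSmyd5 differences was not tested.

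**Figure D4:**
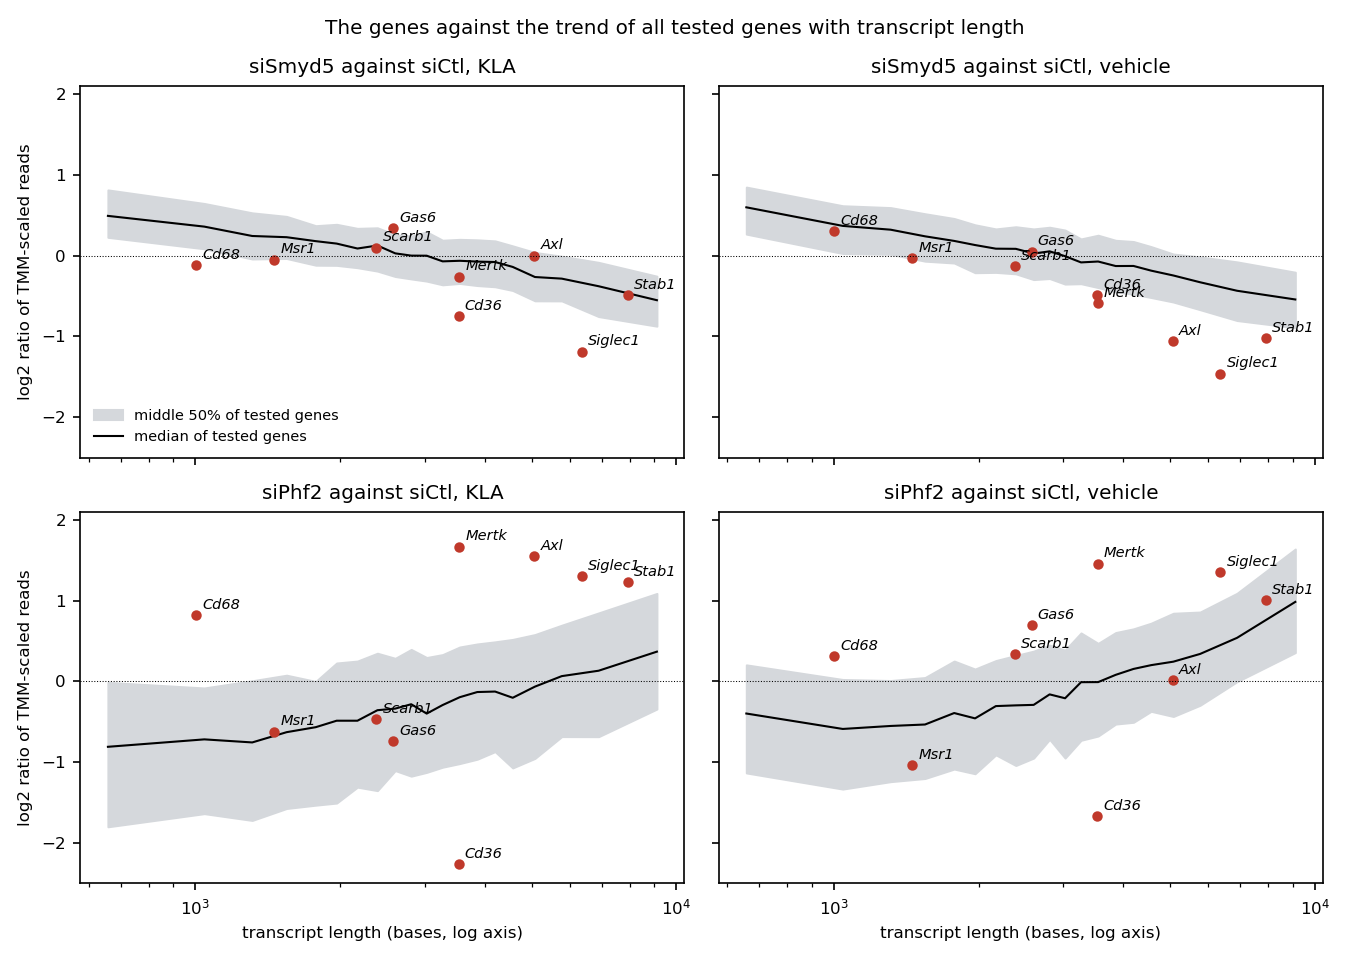
Log2 ratio of TMM-scaled reads to siCtl (2 reads added) against transcript length (log axis), for siSmyd5 in the upper and siPhf2 in the lower panels, KLA left and vehicle right. Red points are the 9 tested genes. The line is the median of all tested genes in 20 classes of length and the grey band their middle 50%. Siglec1 and Cd36 lie under the band in both siSmyd5 panels. In both siPhf2 panels Cd36 lies under the band, and Mertk, Siglec1 and Cd68 lie above it.

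In the libraries labelled siPhf2, Cd36 fell relative to siCtl. With TMM scaling Mertk and Siglec1 rose, which turned to lower with scaling to the total, Rn45s in it. With Rn45s left out of the total, the single-library log2 ratios of Mertk were 1.23 under KLA and 0.98 under vehicle. Those of Siglec1 were then 0.85 and 0.86, and those of Cd36 were -2.71 and -2.17. Over all tested genes 12.6% passed, 8.12% higher and 4.45% lower, against 3 of these 9 genes. These libraries share the siCtl libraries with the siSmyd5 comparison, and they are the ones filled by Rn45s, with 119144 other reads under KLA and 192420 under vehicle. Transcript length moved with the siPhf2 difference too, in the direction opposite to siSmyd5: the Spearman correlation across tested genes was 0.249 under KLA and 0.355 under vehicle. The 400 longest transcripts had a median log2 ratio of 0.37 under KLA and 0.99 under vehicle, against -0.80 and -0.40 for the shortest. Set to the total with Rn45s in it, the median log2 fold of all tested genes was -2.28, against -0.13 with TMM. All 9 genes were then lower than siCtl, as were 7367 of all tested genes, with 38 higher, against 356 lower and 649 higher with TMM.

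Cd36 (NM_007643, chr5:17287508-17341714 on mm9, minus strand) had 64 reads under KLA and 175 under vehicle after siPhf2, against 5015 and 5529 in siCtl. After scaling these were 469 and 724 CPM, against 2261 and 2305 CPM in siCtl. Both siPhf2 values were the lowest of the 6. The ratio to siCtl was 0.208 under KLA (95% counting interval 0.16 to 0.265) and 0.314 under vehicle (0.269 to 0.365), and with the trend in length taken off the log2 ratios were -1.96 and -1.62. The averaged log2 fold was -1.95 (standard error 0.24, edgeR adjusted p 1.49e-05). It passed in 16 of 16 alternatives and its sign turned only when the names siCtl and siPhf2 were exchanged. All 5 transcripts listed for Cd36 had the same reads, so the choice of transcript did not enter.

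Mertk had 37 reads under KLA and 52 under vehicle after siPhf2, against 184 and 183 in siCtl, and after scaling 271 and 215 CPM against 83 and 76.3 CPM. Both scaled siPhf2 values were above all 4 others. The averaged log2 fold was 1.60 (standard error 0.24, edgeR adjusted p 0.000194), and it was -0.58 with scaling to the total. Without the siCtl KLA library the call was lost, at 1.46 (edgeR adjusted p 0.0965). The log2 ratio of Mertk in single libraries was 1.67 under KLA and 1.46 under vehicle, and 1.96 and 1.51 with the trend in length taken off. Siglec1 had 46 reads under KLA and 76 under vehicle after siPhf2, against 300 and 292 in siCtl, and after scaling 337 and 314 CPM against 135 and 122 CPM. Its averaged log2 fold was 1.35 (standard error 0.23, edgeR adjusted p 0.000683), with -0.83 under scaling to the total. Without either siCtl library Siglec1 lost its call, at 1.29 and 1.42 (adjusted p 0.169 and 0.129). With the trend in length taken off its log2 ratios of 1.30 under KLA and 1.35 under vehicle became 1.25 and 0.90. Of the 7 macrophage markers Csf1r (log2 fold 1.37, edgeR adjusted p 0.000805) and Mpeg1 (1.0, adjusted p 0.00308) were also higher after siPhf2 with TMM scaling, and Fcgr1 was lower (-1.18, adjusted p 0.0432). The 7 summed to 6922 CPM under KLA and 6889.9 under vehicle after siPhf2, against 4952 and 4099 in siCtl, and their part in the Mertk and Siglec1 differences was not tested.

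The contrast between Cd36 and Mertk does not depend on scaling. Their transcripts are of nearly equal length (3527 and 3536 bases), with coding parts of 1416 and 2982 bases. After siPhf2 there were 1.73 Cd36 reads per Mertk read under KLA (95% interval 1.16 to 2.59) and 3.37 under vehicle (2.47 to 4.58). After siSmyd5 there were 19.5 (15.9 to 23.9) and 32.7 (26 to 41.1), and in siCtl 27.3 (23.5 to 31.6) and 30.2 (26.1 to 35). Both siPhf2 libraries lie below the 4 others. Siglec1 and Mertk kept a like balance, with Siglec1 at 55.4% of the reads of both under KLA and 59.4% under vehicle after siPhf2, against 62% and 61.5% in siCtl.

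The other genes did not pass in the siPhf2 libraries. Msr1 had 19 reads under both agents, against 479 under KLA and 394 under vehicle in siCtl, with an averaged log2 fold of -0.85 (standard error 0.29, edgeR adjusted p 0.0618), and it passed as lower without the siPhf2 KLA library, at -1.08 (adjusted p 0.00837). With the trend in length taken off its log2 ratio was 0.13 under KLA and -0.51 under vehicle, so no direction is given for KLA. Axl had an averaged log2 fold of 0.96 (standard error 0.34, edgeR adjusted p 0.0718), which was 0.19 without the siCtl KLA library and 0.22 without the siPhf2 KLA library, and passed at 1.41 (adjusted p 0.000404) without the siPhf2 vehicle library. Cd68 was at 0.58 (standard error 0.24, edgeR adjusted p 0.115), at 0.19 without the siPhf2 KLA library and at 0.91 without the siPhf2 vehicle library. With the trend in length taken off, the log2 ratios of Cd68 to siCtl rose from 0.82 to 1.65 under KLA and from 0.31 to 0.88 under vehicle. Stab1 was at 1.18 (standard error 0.43, edgeR adjusted p 0.0778) on 6 reads under KLA and 15 under vehicle, and its log2 ratios of 1.23 and 1.01 became 1.04 and 0.30 with the trend in length taken off. Gas6 had an averaged log2 fold of 0.40 (standard error 0.39, edgeR adjusted p 0.549) and Scarb1 of 0.09 (standard error 0.38, adjusted p 0.911). By size 3 of the 9 genes were higher than siCtl under KLA (Mertk, Axl and Siglec1; 7.77% of tested genes) and 3 under vehicle (Mertk, Siglec1 and Stab1; 10.7%). Lower by size were Cd36 under KLA (7.18% of tested genes) and Cd36 and Msr1 under vehicle (8.71%). Some markers of other cells were lower here. The stromal and mesothelial sum was 337 CPM under KLA and 434 under vehicle, against 872 and 851 in siCtl. The 6 neutrophil markers, Mmp8 foremost, summed to 0 and 29 CPM, against 99.7 and 97.6 in siCtl. The B cell and dendritic cell sums went both ways. B cell markers summed to 7.33 CPM under KLA and 16.6 under vehicle, against 13.5 and 14.2 in siCtl. Dendritic cell markers summed to 14.7 and 0 CPM, against 10.8 and 5. The part of these cells in the siPhf2 differences was not tested.

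Among other genes of uptake, read from lists, KLA raised some and lowered none of those tested on the first 3 lists. Over all tested genes 11.2% were higher with KLA and 4.6% lower, against which the counts of each list are to be read. Of 15 further scavenger receptors 8 were tested and 3 rose, none fell: Olr1, a receptor for oxidised low-density lipoprotein (log2 fold 4.47), Cd14, which hands lipopolysaccharide to TLR4 (1.97), and Cxcl16, a membrane-bound chemokine that also binds oxidised lipoprotein (1.46). The tested 8 had a median log2 fold of 0.17, against -0.03 over all tested genes. Of 20 further receptors and bridging proteins for dead cells 15 were tested and 2 rose, the integrin subunit Itgav (1.58) and the bridging protein Thbs1 (1.0), with a median of -0.24 over the 15. Of 13 genes of the engulfment machinery 12 were tested and 1 rose, the small GTPase Rhog (0.57), with a median of 0.10. Tyro3, the remaining kinase of the Axl and Mertk family, had 0 to 3 reads a library.

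Enzymes and transcription factors tied to these receptors moved with KLA in both directions. Of 11 tested 3 rose and 3 fell, against 11.2% higher and 4.6% lower over all tested genes, with a median log2 fold of -0.19, and those reported here are named. Adam17, a protease that sheds Mertk from the cell surface, rose (0.95), as did the oxidative stress factor Nfe2l2 (0.86) and Sp1 (0.77). Pparg, a nuclear receptor that drives Cd36 transcription, had 47 reads with KLA and 120 with vehicle after siSmyd5, 2 and 7 after siPhf2, and 95 and 219 in siCtl, and fell by 1.15 on the log2 scale (standard error 0.20, edgeR adjusted p 0.000353). Its partner Rxra fell as well (-0.81). Cd36 itself did not pass for KLA, at a log2 fold of -0.28 (standard error 0.18, edgeR adjusted p 0.364).

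After siSmyd5 the lists held 2 calls, both lower: Dock1, an activator of Rac in engulfment (-0.93), and Sp1 (-1.28). These are 0 of 8, 0 of 15, 1 of 12 and 1 of 11 tested genes on the 4 lists, against 3.6% lower and 2.71% higher over all tested genes. In the siPhf2 libraries Pparg was lower (-1.64, on 2 and 7 reads), as were the complement subunit C1qa (-2.29, on 1 and 3 reads) and Calr, which marks dying cells for uptake (-0.90). Higher there with TMM scaling were Lrp1, a large endocytic receptor (3.18), the bridging protein Mfge8 (1.08), Dock1 (1.08) and Itgav (0.81). By list these were 1 higher of 8 scavenger receptors, 2 higher and 2 lower of 15 receptors and bridging proteins, 1 higher of 12 engulfment genes and 1 lower of 11 enzymes and transcription factors, against 8.12% higher and 4.45% lower over all tested genes. The shift of all genes under scaling to the total is larger than each of these rises but that of Lrp1. For the list genes the trend with transcript length was not taken off, after siSmyd5 or in the siPhf2 libraries. Lrp1 had 914 reads under KLA and 3241 under vehicle after siPhf2, against 2323 and 2622 in siCtl, and its vehicle count is above that of siCtl even in a library with fewer reads.

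Over the 6 libraries the 2 genes most like Axl, among 3612 genes of at least 50 reads on average, were Zcchc2 and Ppfibp2, with Pearson correlations of log2 scaled values of 0.995 and 0.993. The 6 points share the siRNA and agent groups and their depths, and so many genes were searched that the values are a description.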

How the data were processed

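Poly(A) RNA of 6 libraries was fragmented, tailed, reverse transcribed with barcoded primers and sequenced on an Illumina Genome Analyzer 2, per the labels' protocols. The deposited values are a signal for each RefSeq transcript: per the file headers, reads were brought to 10000000 tags in each library, and the word cds appears there too. The submitters' processing notes name HOMER and mm9 and give neither a role nor a version. How reads were aligned, and how strand and multiple matches were treated, is not given in the sources used. Coordinates of genes are on mm9 as deposited, and coding lengths came from GENCODE on GRCm38. No column of sample values was left unused (0).

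Reads were recovered as the deposited signal times a header total over 10000000, and were taken as whole within 0.02 of a whole number. The siSmyd5 columns gave 100% whole reads with their own totals. The siPhf2 columns gave 1.13% (vehicle) and 0.76% (KLA) and the siCtl columns 2.43% under both agents with their own totals, and 100% with each other's. Column names were kept, and exchanged names were tried too. The highest transcript of each of 23282 symbols was kept, and the 7995 that averaged 10 reads or more were tested.

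Averaged effects came from edgeR 4.0.16 in R 4.3.3, an additive quasi-likelihood fit of siRNA and agent with TMM scaling, 2 residual degrees of freedom, 2-sided p-values and a Benjamini-Hochberg threshold of 0.05. The count model was run on recovered reads although the deposited unit is a signal; it called 1260 genes for KLA, 505 for siSmyd5 and 1005 for siPhf2. The alternatives were limma 3.58.1 on log2 of CPM with 15.4 or 1 added, limma-voom, DESeq2 1.42.0, other scalings and filters, exchanged names and left-out libraries. Contrasts of 1 library with 1 carry no p-value, and their ratios have exact conditional Poisson 95% intervals, which like the Wilson intervals cover counting error only, since reads are not independent molecules. The limit for a count of 0 is 3 reads. Scripts were tested on simulated data. The members and lists were chosen with earlier results of these data known. Named are the 10 members, Smyd5, Phf2, list genes past the threshold (at most 4 per list, effect and direction), the 3 genes most like each member called for KLA, and leading markers (2 of the genes this rule gives are not reported here); Tyro3 and the gene pairs were chosen after their values were seen.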

Additional observations from a re-analysis of the deposited data

Results flagged for a closer look

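With TMM scaling Cd68 moved in opposite directions between groups. Its ratio of KLA to vehicle was 0.652 after siSmyd5 (95% counting interval 0.611 to 0.696), 1.24 in the libraries labelled siPhf2 (1.06 to 1.45) and 0.874 in siCtl (0.83 to 0.921). Its ratio of siSmyd5 to siCtl was 0.92 under KLA (0.863 to 0.981) and 1.23 under vehicle (1.17 to 1.30). With 1 library a group neither difference was tested. In the siPhf2 libraries the log2 ratio of KLA to vehicle was 0.31 with TMM and -0.05 with scaling to the total. With Rn45s left out of the total it was 0.18. Cd68 has a short transcript of 1002 bases, and with the trend in length taken off the log2 ratio of siSmyd5 to siCtl was -0.49 under KLA and -0.08 under vehicle, which no longer point in opposite directions.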

How the results depend on the processing

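No paired analysis was possible because each group has 1 library, so a replicate number ties nothing together, and the averaged fit already compares KLA with vehicle within each siRNA. Depth limits Stab1, Scarb1, Gas6, Msr1 and Marco most, with 0 to 22 reads in the siPhf2 libraries. Axl had 14 reads there under vehicle. Of 447 refitted averaged log2 folds of the 9 genes 367 kept direction and call, 24 gained and 11 lost a call, and 45 turned sign; of 306 single-library ratios 219 moved by less than their counting interval. The cause was not tested where a setting changed a value, other than fewer genes, fewer libraries or the exchange itself. Against 1260, 505 and 1005 genes called for KLA, siSmyd5 and siPhf2, DESeq2 called 607, 14 and 485. limma on log2 values called 403, 0 and 642, and with 1 added 243, 0 and 205, where 489 and 444 genes had an unadjusted p under 0.05 for siSmyd5. With limma-voom 17 were called for siSmyd5, and a minimum mean of 50 reads left 685 for KLA and 101 for siSmyd5. Both limma fits on log2 values called 0 of the 9 genes for KLA and 0 for siSmyd5, with 2 at an unadjusted p under 0.05 in each. Without both siPhf2 libraries 1999 genes were called for KLA (3 of the 9) and 2075 for siSmyd5 (4 of the 9).

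Scarb1 for KLA turned to -0.09 (DESeq2), -0.14 and -0.19 (limma on log2 values, and with 1 added), -0.13 (scaling to the total) and -0.01 (DESeq2 size factors, and a minimum mean of 50). Scarb1 for siPhf2 turned to -0.05 and -0.08 (the same limma fits) and -0.15 (no filter), and Gas6 to -0.05 (limma with 1 added). Scaling to the total called 229 genes for siSmyd5 and 7405 for siPhf2, all 9 of the genes described among them, with log2 folds for siPhf2 of -0.83 (Siglec1), -0.96 (Stab1), -0.58 (Mertk), -1.27 (Axl), -1.75 (Gas6), -2.07 (Scarb1) and -1.62 (Cd68). The single-library log2 ratios were then -0.92 (Siglec1), -0.53 (Mertk) and -0.66 (Axl) under KLA, and -0.70 (Siglec1), -0.95 (Stab1) and -0.57 (Mertk) under vehicle. With the names siCtl and siPhf2 exchanged, 2026 genes were called for siSmyd5 (5 of the 9), with Msr1 at 0.81, Cd36 at 1.33, Gas6 at -0.21 and Cd68 at -0.47. The exchange turns every siPhf2 value by construction: Msr1 0.85, Cd36 1.95, Siglec1 -1.35, Stab1 -1.18, Mertk -1.60, Axl -0.96, Gas6 -0.40, Scarb1 -0.09 and Cd68 -0.58 averaged, Cd36 2.26, Siglec1 -1.30, Mertk -1.67 and Axl -1.55 under KLA, and Msr1 1.04, Cd36 1.67, Siglec1 -1.35, Stab1 -1.01 and Mertk -1.46 under vehicle.

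With each library left out in turn, where a lone library is taken to vary like the others, the counts of called genes were 429 to 2118 for KLA, 1 to 2311 for siSmyd5 and 215 to 1535 for siPhf2, and of the 9 genes 1 to 3, 0 to 4 and 1 to 5. The siSmyd5 count was 1 without either siCtl library, 5 without the siSmyd5 vehicle library and 2 without the siSmyd5 KLA library, and Siglec1 was not called in these 4 fits. For KLA Scarb1 ranged from -0.26 to 0.12 and Cd68 from -0.40 to 0.06. For siSmyd5 Msr1 ranged from -0.14 to 0.05, Axl from -1.20 to 0.08, Gas6 from -0.15 to 0.53, Scarb1 from -0.26 to 0.21 and Cd68 from -0.27 to 0.42. For siPhf2 Gas6 ranged from -0.92 to 0.77 and Scarb1 from -0.57 to 0.39.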
